A study of Rattus norvegicus with 65 samples.

Results

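A set of 10 genes that build or mark the blood-brain barrier were followed through the hypothalamus of 65 male Wistar rats. They are Cldn5, Esam, Pecam1, Slc2a1, Slc7a5, Mfsd2a, Slco1a4, Abcb1a, Flt1 and Plvap, 10 of the 38513 genes in the deposited count table. Of the 10, 9 were found under their symbol, and Slco1a4 was found by its NCBI gene number 170698, which the table lists under the symbol Slco1a2. All 10 lay among the 21871 genes that passed the filter on low counts.

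Male rats of the groups the study's methods describe had been made obese on a high-fat diet before the interventions, and the hypothalamus was sequenced 4 weeks after them and after a 10 h fast. The surgical groups were Roux-en-Y gastric bypass (RYGB, n = 14), sham surgery (Sham, n = 11) and sham surgery with food restricted to match the body weight of RYGB rats (BWM, n = 7). The hormone groups received saline (Saline, n = 8), PYY3-36 at 0.1 mg/kg/day (n = 4), the GLP-1 analogue liraglutide at 0.4 mg/kg/day (Liraglutide, n = 5) or both at these doses (PYY3-36 + liraglutide, n = 10). A further group of 6 rats is labelled lean, and no diet or treatment is tied to that label in the sources used here. Every group described other than BWM had free access to a choice of high- and low-fat food. PYY3-36 came from an osmotic minipump and liraglutide by injection. Each library came from 1 animal, and the animals were studied in 2 periods, batch A (37 libraries) and batch B (28 libraries). BWM and Lean were in batch A only, PYY3-36 and Liraglutide in batch B only. RYGB had 11 libraries in batch A and 3 in batch B, Sham 5 and 6, Saline 3 and 5, and the combination 5 in each.

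Endothelial cells of brain capillaries are sealed by tight junctions, so that solutes cross mainly through carriers in the cell membrane, and efflux pumps return many lipophilic compounds to the blood. In the hypothalamus the median eminence is an exception: its capillaries are fenestrated and leaky, which lets circulating hormones reach neurons that regulate appetite. The question here was whether genes of the barrier differ between animals treated by surgery, food restriction or hormones and their controls.

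By role the genes form 4 sets. Cldn5 encodes claudin-5, the main tight junction protein of brain endothelium (chromosome 11, 86356292 to 86357718, minus strand, Rnor_6.0, as are all gene positions here). Esam, an endothelial adhesion molecule of the junctions, lies on chromosome 8 at 39997875 to 40008802, plus strand, and Pecam1, the platelet and endothelial adhesion molecule CD31, on chromosome 10 at 94850971 to 94913202, minus strand. The carriers are Slc2a1, the glucose transporter GLUT1 (chromosome 5, 138154677 to 138182897, plus), Slc7a5, the large neutral amino acid transporter LAT1 (chromosome 19, 54693959 to 54722563, minus), Mfsd2a, a carrier of lysophospholipids that also restrains transcytosis (chromosome 5, 140642865 to 140657759, minus), and Slco1a4, an organic anion carrier (chromosome 4, 175969549 to 176026227, minus). Abcb1a, the efflux pump P-glycoprotein, lies on chromosome 4 at 22339829 to 22517642, minus strand. The last set holds Flt1, the VEGF receptor 1 (chromosome 12, 9033993 to 9205886, plus), and Plvap, a protein of the diaphragms of fenestrated vessels (chromosome 16, 19906354 to 19918668, minus).

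Promoter windows in the RefSeq table of the GRCr8 build matched 7 of the 10 genes. The 250 bases before the gene start are shown for 4 of them, because Cldn5 and Abcb1a went together between animals (r = 0.70), Flt1 less closely with Cldn5 and Plvap with none of them. Capitals mark each match of AGGAAG, the core bound by ETS factors, and of GGGCGG, the GC box, on either strand. All are written 5′ to 3′ on the strand of the gene.
Cldn5, chr11:95718599-95718848, minus strand: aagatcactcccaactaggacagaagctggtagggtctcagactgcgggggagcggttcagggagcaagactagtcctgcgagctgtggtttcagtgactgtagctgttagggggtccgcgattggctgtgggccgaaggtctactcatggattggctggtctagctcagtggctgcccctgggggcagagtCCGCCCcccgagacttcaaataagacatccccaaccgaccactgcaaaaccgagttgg
Abcb1a, chr4:26397649-26397898, minus strand: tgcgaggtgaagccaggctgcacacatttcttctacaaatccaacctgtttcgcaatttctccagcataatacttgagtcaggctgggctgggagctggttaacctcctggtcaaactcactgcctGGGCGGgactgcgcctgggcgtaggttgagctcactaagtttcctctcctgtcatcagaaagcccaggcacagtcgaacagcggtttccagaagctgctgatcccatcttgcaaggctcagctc
Flt1, chr12:12333180-12333429, plus strand: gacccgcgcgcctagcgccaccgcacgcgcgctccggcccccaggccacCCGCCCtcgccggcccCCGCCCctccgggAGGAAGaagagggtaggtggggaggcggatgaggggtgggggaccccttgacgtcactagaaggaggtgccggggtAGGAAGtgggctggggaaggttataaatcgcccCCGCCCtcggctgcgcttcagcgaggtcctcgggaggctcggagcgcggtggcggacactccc
Plvap, chr16:18231280-18231529, minus strand: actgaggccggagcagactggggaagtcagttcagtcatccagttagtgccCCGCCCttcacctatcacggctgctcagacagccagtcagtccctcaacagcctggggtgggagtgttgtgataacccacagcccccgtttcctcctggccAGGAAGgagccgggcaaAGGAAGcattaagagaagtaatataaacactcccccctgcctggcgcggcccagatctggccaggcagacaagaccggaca

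Flt1 and Plvap each held 2 matches of the ETS core, Slco1a4 held 1, and the windows of Cldn5, Abcb1a, Slc2a1 and Slc7a5 held 0. The ETS core was present in 29.5% of the 33469 promoter windows of the table, and the GC box in 30.5%. The GC box matched 4 times before Slc7a5, 3 times before Slc2a1 and Flt1, once before Cldn5, Abcb1a and Plvap, and not before Slco1a4. CTTTGA, the core bound by TCF and LEF factors of the Wnt pathway, which is in 13.9% of windows, matched in none of the 7. A match is a run of letters and not a measured site.

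The libraries held 20041010 to 36539941 counts (median 27379945). Counts of a single member ran from 42 for Plvap to 9117 for Slc2a1, so counting error was small beside the spread between animals. Summed markers of the hypothalamus ranged from 55.0 to 8463 CPM (counts scaled to the library total), and in 11 of the 65 libraries they were below 10% of the median of 1924. Group medians of summed markers, in CPM, lay between 40.2 and 272 for choroid plexus, 37.6 and 317 for blood, 55.9 and 107 for posterior pituitary and median eminence, 2304 and 3692 for astrocytes, 13522 and 26849.7 for oligodendrocytes, 385 and 487 for microglia and 4748 and 6122 for neurons. Summed meningeal markers had a median of 137 CPM in Sham, 345 in RYGB, 1217 in BWM and 754 in Lean. The median was 257 in Saline, 921 in PYY3-36, 171 in Liraglutide and 305 in the combination. Summed anterior pituitary markers reached 76794.6 CPM in BWM replicate 5, against at most 1145 in any other library. Results on BWM are therefore also given without this animal, and without BWM replicate 7, which had the highest count of 7 of the 10 members among all libraries.

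Levels between genes were compared as TPM, a share of transcripts that is scaled per base of exon and to the same total in every library. Cldn5 had the highest median of the 10 at 172 TPM, followed by Slc2a1 at 132 TPM. Slc7a5 had a median of 51.2 TPM, Slco1a4 of 42.9 TPM, Esam of 31.3 TPM and Mfsd2a of 27.5 TPM. Pecam1 had 19.2 TPM, Abcb1a 16.0 TPM, Flt1 12.95 TPM and Plvap, the gene of fenestrated vessels, 8.44 TPM. Slc2a1 exceeded Slc7a5 in all 65 libraries, and Cldn5 exceeded Slc2a1 in 55. In this order 5 pairs of neighbours had a median log2 ratio smaller than its SD over the libraries. They were Slc7a5 and Slco1a4, Esam and Mfsd2a, Pecam1 and Abcb1a, Abcb1a and Flt1, and Flt1 and Plvap (0.64, SD 0.83). The first of each pair was still the higher in 49, 42, 45, 58 and 53 of the 65 libraries. In bulk tissue fewer endothelial cells and less RNA per cell cannot be told apart.

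Within a group and batch, Plvap varied most between animals, with an SD of 0.68 on the log2 scale, higher than that of 94.7% of all genes. Slc7a5 varied least, with an SD of 0.17, and the median of all genes was 0.26. Across the 65 libraries Plvap ran from 2.13 to 56.7 TPM and Slc2a1 from 94.2 to 248 TPM.

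**Figure D1:**
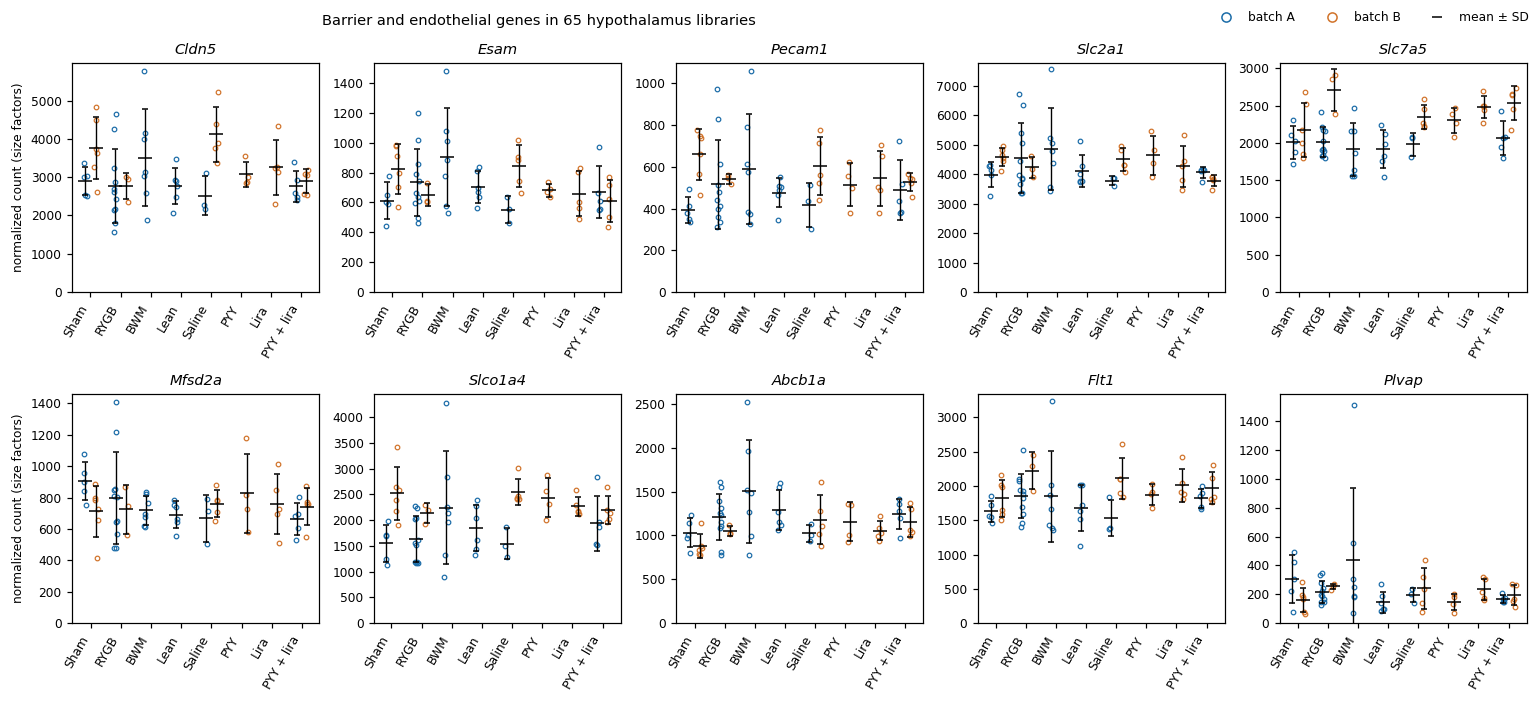
Normalized counts (y axis, from 0) of each gene in each of the 65 libraries by group (x axis, PYY for PYY3-36 and lira for liraglutide), with circles for animals in batch A (blue) and batch B (orange) and black bars for mean ± SD. The highest BWM circle in most panels is replicate 7, and the highest Plvap circle, at 1509, is BWM replicate 5.

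RYGB against Sham asked whether bypass surgery changed the barrier genes. None of the 10 members passed the test, an adjusted p under 0.05 in edgeR's quasi-likelihood test with batch as a term and Benjamini-Hochberg adjustment over all genes. In this comparison 13% of all genes passed, 6.52% higher and 6.53% lower in RYGB. At an unadjusted p under 0.05 there were 2 of 10 members, beside 30% of all genes, and DESeq2 also called 0. The median log2 fold change of the 10 was 0.05, beside −0.02 for all genes.

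Flt1 ranged in batch A from 1458 to 1847 normalized counts in Sham (median 1568) and from 1396 to 2527 in RYGB (median 1877). In batch B it was 2453, 2286 and 1927 in the 3 RYGB rats and 1504 to 2164 in Sham (median 1820). RYGB medians lay above Sham in both batches and the ranges overlapped. The log2 fold change was 0.22 (SE 0.10, adjusted p = 0.131 in edgeR's test). Abcb1a was 797 to 1230.4 in Sham (median 1008) and 775 to 1605 in RYGB (median 1231) in batch A, where 9 of 11 RYGB rats exceeded the Sham median. Its log2 fold change was 0.26 (SE 0.12, adjusted p = 0.145 in edgeR's test), and against Saline it was 0.00 (SE 0.14).

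Of the other members, Slc7a5 had the narrowest 95% interval and Plvap the widest. Cldn5 had a log2 fold change of −0.20, with an interval from −0.48 to 0.09. Slc2a1 had 0.06 (−0.14 to 0.26), Slc7a5 0.11 (−0.04 to 0.26), Mfsd2a −0.06 (−0.34 to 0.21) and Slco1a4 −0.08 (−0.38 to 0.22). Esam had 0.03 (−0.27 to 0.32), Pecam1 0.09 (−0.24 to 0.43) and Plvap −0.04 (−0.65 to 0.58). Without Plvap the intervals of the members reached from −0.48 to 0.51. A p that misses the threshold does not show that values did not differ.

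Within batch A, 0 members passed in RYGB against Sham, where 8.57% of all genes did, and within batch B 0 members passed, where 2.72% did; at an unadjusted p under 0.05 there were 0 and 1 of 10 members, beside 25.4% and 21.6% of all genes. Slc7a5 came nearest in batch B: the 3 RYGB rats had 2905, 2391 and 2851 normalized counts, and the 6 Sham rats 1797 to 2677 (median 2083). Its log2 fold change was 0.33 in batch B (SE 0.12, adjusted p = 0.107 in edgeR's test) and −0.02 in batch A (SE 0.09). The test of the difference between batches called 0% of all genes and no member, with the smallest adjusted p at 0.405 for Slc7a5. Plvap had −0.51 in batch A (SE 0.39) and 0.67 in batch B (SE 0.52), a difference of 1.18 with an interval from −0.12 to 2.48.

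BWM against Sham asked what food restriction to the weight of RYGB rats changed. No member passed the test, in which 0.32% of all genes passed, 0.311% higher and 0.00914% lower in BWM. At an unadjusted p under 0.05 there were 4 of 10 members, all higher in BWM, beside 12.3% of all genes, and 9 of the 10 had a positive log2 fold change, with a median of 0.28 beside −0.00 for all genes. DESeq2 called 1 member, Abcb1a.

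Abcb1a in the 7 BWM rats ranged from 778 to 2521 normalized counts with a median of 1485. The 5 Sham rats of batch A had 1136, 797, 1230.4, 969 and 1008, and the 6 of batch B 779 to 1146 (median 850.3). Of the BWM rats 5 of 7 lay above every Sham value, while replicate 1, at 991, lay within the Sham range and replicate 5, at 778, just below the lowest Sham value of 779. The log2 fold change was 0.59 (SE 0.15, 95% interval 0.29 to 0.89, adjusted p = 0.0543 in edgeR's test). Leaving out BWM replicate 5 put it past the threshold (0.69, adjusted p = 0.0486), as did DESeq2 (0.61, adjusted p = 0.0261), and it was 0.44 without BWM replicate 7 (adjusted p = 0.345) and 0.55 without both (adjusted p = 0.696). Against Saline in place of Sham it was 0.34 (SE 0.17, adjusted p = 0.769). In 56 of the 65 libraries the Abcb1a value was not whole, that is, it held reads divided between rows, since the authors counted multi-mapping reads as fractions. Its neighbour and paralog Abcb1b had a log2 fold change of −0.06 (SE 0.21).

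Plvap was the member most dependent on 1 animal. The 7 BWM rats had 68.8, 182, 188, 254, 1509, 308 and 555 normalized counts, and the Sham rats of batch A 425, 78.8, 496, 309 and 219.6. The value of 1509 was that of BWM replicate 5, which held the pituitary markers, and the other 6 rats overlapped Sham. The log2 fold change of 0.89 (SE 0.37, adjusted p = 0.292 in edgeR's test) became 0.13 without replicate 5 and −0.21 without replicates 5 and 7. The part of pituitary RNA in the Plvap value of this animal was not tested.

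Esam had a log2 fold change of 0.40 in BWM (SE 0.18, adjusted p = 0.345 in edgeR's test), Slco1a4 of 0.39 (SE 0.18) and Pecam1 of 0.35 (SE 0.20). Esam in BWM was 527, 1076, 1009.5, 779, 575, 884 and 1481 normalized counts against 440 to 778 in Sham of batch A and 571 to 984 in Sham of batch B. The highest value of all 3 genes was in BWM replicate 7, and without it their log2 fold changes were 0.25, 0.18 and 0.16. This animal had 3214 CPM of summed meningeal markers, the most in its group, and their part in these values was not tested. Cldn5 had 0.20 (−0.14 to 0.55), Slc2a1 0.19 (−0.05 to 0.43), Flt1 0.21 (−0.04 to 0.46), Slc7a5 0.00 (−0.18 to 0.19) and Mfsd2a −0.19 (−0.53 to 0.15). Leaving out replicate 7 alone took Cldn5 to 0.06, Slc2a1 to 0.06 and Flt1 to 0.03. Within batch A, where all BWM rats were, 0 members passed and 5.31% of all genes did, with 4 of 10 members at an unadjusted p under 0.05 beside 19.6% of all genes, and Abcb1a at 0.52 (adjusted p = 0.0658 in edgeR's test).

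RYGB against BWM compared bypass surgery with food restriction meant to give a like course of body weight. No member passed, beside 0.343% of all genes, of which 0.00914% were higher and 0.334% lower in RYGB; DESeq2 called 0 as well. At an unadjusted p under 0.05 there were 5 of 10 members, all lower in RYGB, beside 12.6% of all genes. Slco1a4 had a log2 fold change of −0.47 (SE 0.16, adjusted p = 0.247 in edgeR's test), Cldn5 −0.40 (SE 0.15), Esam −0.37 (SE 0.16), Abcb1a −0.33 (SE 0.14) and Plvap −0.93 (SE 0.35). In batch A, Slco1a4 ranged from 1164 to 2283 normalized counts in 11 RYGB rats (median 1559) and from 901 to 4279 in 7 BWM rats (median 2131), and the BWM range enclosed that of RYGB. Without BWM replicate 7 the log2 fold changes were −0.26 for Slco1a4, −0.25 for Cldn5, −0.23 for Esam, −0.18 for Abcb1a and −0.88 for Plvap, and without replicate 5 they were −0.59, −0.49, −0.44, −0.43 and −0.16. Without both, Plvap was 0.17, Slco1a4 −0.40, Cldn5 −0.36, Esam −0.31 and Abcb1a −0.30. Within batch A, 0.203% of all genes and 0 members passed, with 4 of 10 members at an unadjusted p under 0.05 beside 8.49% of all genes.

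Lean against Sham had 0 members and 0% of all genes past the test, in DESeq2 0 members, and at an unadjusted p under 0.05 there was 1 of 10, beside 12.2% of all genes. That was Abcb1a, at 1067 to 1595 normalized counts in the 6 lean rats (median 1210.1), all above the median of the 5 Sham rats of the same batch. Its log2 fold change was 0.40 (SE 0.16, adjusted p = 0.310 in edgeR's test). Plvap had −0.66 (−1.47 to 0.15) and Mfsd2a −0.23 (−0.59 to 0.13). Within batch A 0.122% of all genes passed and no member did. There 1 of 10 had an unadjusted p under 0.05, beside 15.3% of all genes. It was Plvap, with 85.5 to 273.5 normalized counts in the lean rats (median 118) beside the Sham values above and a log2 fold change of −1.06 (SE 0.45, adjusted p = 0.244 in edgeR's test). In batch A, Abcb1a stood above the Sham median in 9 of 11 RYGB, 5 of 7 BWM, 6 of 6 lean, 4 of 5 combination and 1 of 3 Saline rats, all set against the same Sham animals.

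**Figure D2:**
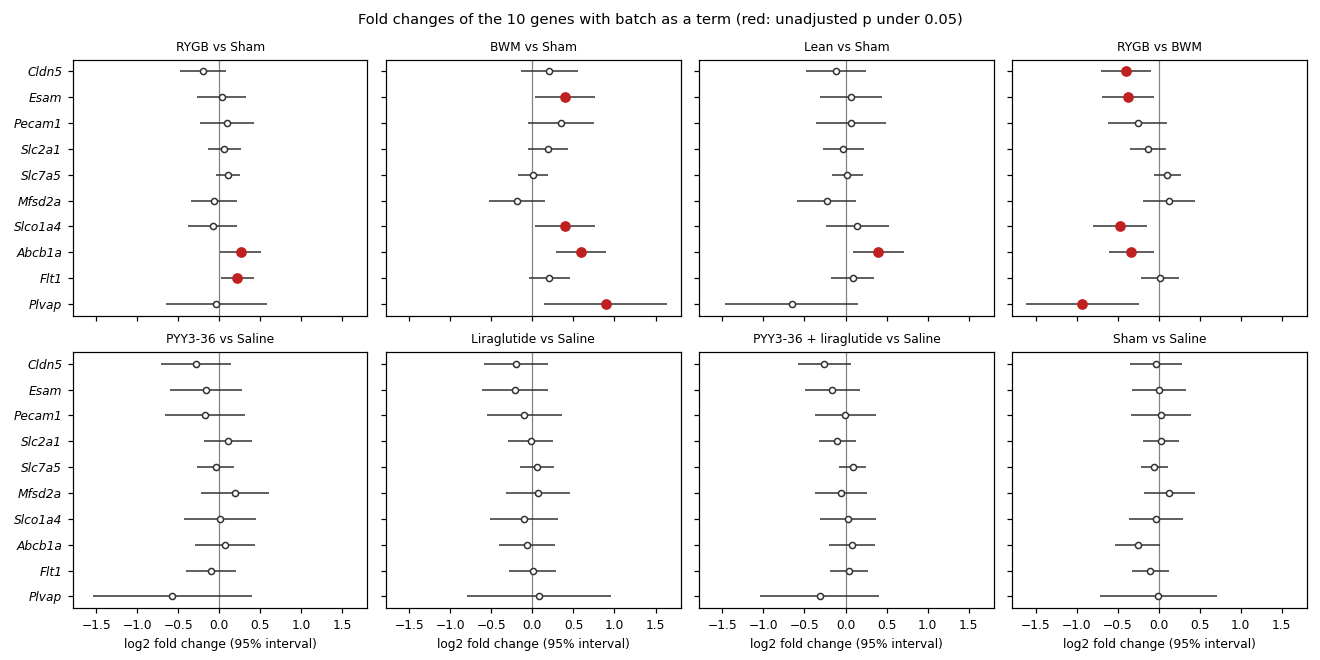
Log2 fold change (x axis, points) with its 95% interval (bars) of each of the 10 genes (y axis) in the 8 comparisons, from edgeR's fit with batch as a term; red points have an unadjusted p under 0.05. No point passed the adjusted threshold, the most distant from 0 being Plvap in BWM (0.89) and in RYGB against BWM (−0.93), both of which rest on BWM replicate 5.

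The hormone treatments were compared with Saline. For PYY3-36, Liraglutide and their combination, 0 of 10 members passed in edgeR's test, beside 0%, 0% and 0.00457% of all genes. DESeq2 called 0 in each. No member had an unadjusted p under 0.05, beside 7.54%, 2.08% and 2.53% of all genes. Leaving out Plvap, the log2 fold changes ran from −0.28 to 0.20 for PYY3-36, from −0.21 to 0.07 for Liraglutide and from −0.26 to 0.09 for the combination. The 95% intervals reached from −0.70 to 0.61, from −0.62 to 0.46 and from −0.58 to 0.37 in these 3 comparisons. The combination, with the most animals, had the narrowest.

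For Cldn5 the log2 fold change was −0.28 under PYY3-36 (SE 0.21), −0.20 under Liraglutide (SE 0.20) and −0.26 under the combination (SE 0.16). In batch B the Saline rats had 3889, 3373, 3749, 5233 and 4380.4 normalized counts of Cldn5. The PYY3-36 rats had 2843, 2871, 3563 and 3016, the Liraglutide rats 3267.5, 3141, 3247, 4337 and 2304, and the combination rats 3089, 2567, 3062, 2537 and 3190.2. All 5 combination rats lay below all 5 Saline rats of this batch. The same held for Slc2a1 in this batch, with 3469.6, 3818, 3829, 3890 and 3891 in the combination and 4091 to 4967 in Saline.

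Over all genes 0.599% lay with all 5 combination rats below all 5 Saline rats in batch B. The log2 fold change of Cldn5 was −0.51 in batch B (SE 0.21, adjusted p = 0.811 in edgeR's test) and that of Slc2a1 was −0.24 (SE 0.14, adjusted p = 0.830). In batch A the combination rats had 2411 to 3406 counts of Cldn5 and the 3 Saline rats 2172, 2268 and 3107, and the groups overlapped. The difference between batches was −0.64 for Cldn5 (−1.27 to −0.00) and −0.74 for Esam (−1.38 to −0.10), with an adjusted p of 1 for both in edgeR's test, which called 0% of all genes. Within batch A 0% of all genes and within batch B 0.0135% passed in the combination comparison, and for PYY3-36 and Liraglutide in batch B 0.0045% and 0.00901%, with 0 members in each. Within batch B 2 members had an unadjusted p under 0.05 in the combination comparison, Cldn5 and Esam, beside 6.14% of all genes. In the other 3 of these within-batch comparisons 0 did. The shares of all genes there were 0.748% for the combination in batch A, and 10.3% for PYY3-36 and 3.63% for Liraglutide in batch B.

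Plvap had wider intervals: −0.57 under PYY3-36 (−1.54 to 0.39), 0.08 under Liraglutide (−0.80 to 0.96) and −0.31 under the combination (−1.04 to 0.41). Its values were 180.5, 72.9, 134 and 202 normalized counts under PYY3-36, 303, 318, 157, 215 and 175 under Liraglutide, and 74.9, 318, 234, 439.7 and 139 in Saline of batch B. The 3 groups overlapped.

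Sham against Saline compared the control groups. No member passed in edgeR's test or in DESeq2, 0 had an unadjusted p under 0.05, and 0.0137% of all genes passed. Abcb1a was the farthest, lower in Sham by a log2 fold change of −0.26 (SE 0.14, adjusted p = 0.426 in edgeR's test). Within batch A 0% and within batch B 0.0225% of all genes passed with no member among them. Abcb1a alone had an unadjusted p under 0.05 within batch B, at −0.43 (SE 0.18), beside 9.56% of all genes. Within batch A 0 members did, beside 14.3%. The difference between batches called 0.0045% of genes and no member.

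**Figure D3:**
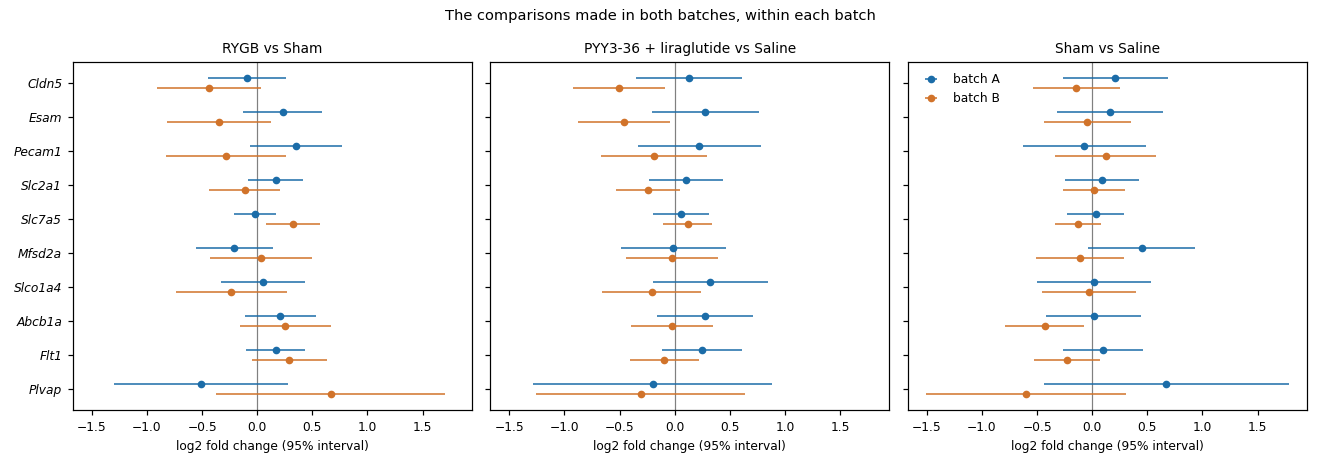
Log2 fold change (x axis) with its 95% interval for the 10 genes (y axis) within batch A (blue) and within batch B (orange), for the 3 comparisons with animals in both batches. Intervals of the batches overlap for every gene, and Plvap is farthest apart, at −0.51 and 0.67 in RYGB against Sham and at 0.67 and −0.60 in Sham against Saline.

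The batches were compared with group in the fit: 5 of the 10 members were higher in batch B and 0 lower, beside 40.7% of all genes that differed. Slco1a4 had a log2 difference of 0.50 (SE 0.12, adjusted p = 0.000430 in edgeR's test), Pecam1 of 0.38 (SE 0.13, adjusted p = 0.0143) and Cldn5 of 0.28 (SE 0.11, adjusted p = 0.0383). Slc7a5 had 0.28 (SE 0.06, adjusted p = 7.45e-05) and Flt1 0.24 (SE 0.08, adjusted p = 0.0118). Sham rats had 1239, 1121, 1713, 1994 and 1686 normalized counts of Slco1a4 in batch A and 1910.2 to 3418 in batch B (median 2492), and the ranges overlapped between 1910.2 and 1994. Saline rats had 1279, 1500.4 and 1861 in batch A and 2416 to 3010 in batch B. Esam had a difference of 0.18 (SE 0.12) and Slc2a1 of 0.07 (SE 0.08), and Abcb1a, Mfsd2a and Plvap had differences of −0.09 (SE 0.10), −0.05 (SE 0.11) and −0.08 (SE 0.25). Library fragments were longer in batch B, per the labels, and the part of this in the differences was not tested. With a replicate block in place, 0 of the 5 remained past the threshold, with log2 differences of 0.46 for Slco1a4, 0.39 for Pecam1, 0.28 for Cldn5, 0.21 for Slc7a5 and 0.18 for Flt1. In groups that both batches hold, replicate numbers ran on from batch A into batch B, so the block shares information with batch. This loss therefore cannot show whether the batch differences hold.

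Between animals the members varied together to very different degrees. Correlations were taken over the 65 libraries after the mean of each group within its batch was removed. They describe libraries that share a dissection, a depth and a normalization, and carry no test. Cldn5 and Esam had a Pearson r of 0.87 (Spearman rho 0.83), Pecam1 and Esam 0.81, Cldn5 and Pecam1 0.78 and Cldn5 and Slco1a4 0.78. Slc2a1 followed Cldn5 at 0.72 and Abcb1a followed it at 0.70. Flt1 was nearest to Abcb1a at 0.66.

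Mfsd2a, Slc7a5 and Plvap had the lowest r, with medians over their 9 pairs of 0.23, 0.10 and 0.03. Mfsd2a reached 0.50 with Slc2a1 and 0.41 with Cldn5, and Slc7a5 0.44 with Flt1, which is as high as some pairs of the other members. Mfsd2a had no r above 0.50 with another member, Slc7a5 none above 0.44 and Plvap none above 0.19, with 4 of its 9 pairs below 0. The median over all 45 pairs was 0.41, and 0.32 without BWM replicates 5 and 7, where Pecam1 and Flt1 had 0.27 and Mfsd2a and Slc2a1 0.56. Of the 28 pairs without Plvap and Slc7a5, 18 exceeded 0.5 and 0 lay below 0.

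**Figure D4:**
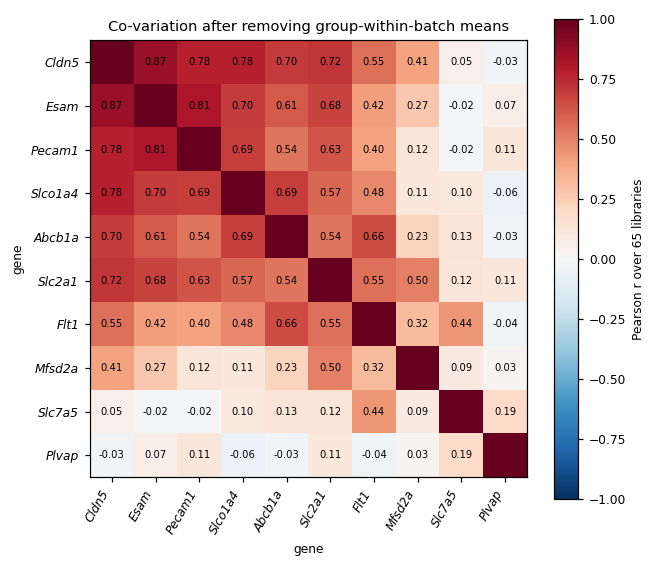
Pearson r (colour and number, from −1 to 1) between each pair of the 10 genes over 65 libraries, after removing the mean of each group within its batch. The block from Cldn5 to Slc2a1 holds r between 0.54 and 0.87, and the Plvap row lies between −0.06 and 0.19.

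Among all 21871 genes, the 3 most like each member were found by the same r. Cldn5 was nearest to Esam (0.87), Srgn (0.86), which encodes serglycin, and Akr1cl (0.85). Esam was nearest to Srgn (0.87), Acvrl1 (0.87), a BMP receptor of endothelium, and Cldn5. Pecam1 was nearest to Vwf (0.87), the von Willebrand factor, Tm4sf1 (0.81) and Lrg1 (0.81). Slco1a4 was nearest to Srgn (0.85), Itm2a (0.81) and Cyyr1 (0.80). Abcb1a was nearest to Tek (0.75), the angiopoietin receptor, Adgrf5 (0.74) and Tcf7 (0.74), and Flt1 to Adgrf5 (0.76), Ptprb (0.72), a vascular phosphatase, and Glul (0.71), the glutamine synthetase of astrocytes. Slc2a1 was nearest to Cldn5 (0.72), Akr1cl (0.72) and Nudt4 (0.70).

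Mfsd2a was nearest to Ptpn11 (0.83), Ptp4a3 (0.83) and Olig1 (0.80), a transcription factor of the oligodendrocyte lineage. Its r with the summed oligodendrocyte markers was 0.69, the highest of the 10 members. Slc7a5 was nearest to Slc7a1 (0.61), a carrier of cationic amino acids, Paqr8 (0.61) and Rab22a (0.60). Plvap was nearest to Vsig10 (0.80), Ldhd (0.74) and Krt18 (0.73), a keratin of simple epithelia. Its r was 0.56 with summed anterior pituitary markers and 0.50 with summed hypothalamic markers, and 0.42 and 0.54 without BWM replicates 5 and 7. As picked examples, Sham replicate 2, with 68.5 CPM of hypothalamic markers, had 78.8 normalized counts of Plvap, and Sham replicate 6, with 197, had 61.0. The last was the lowest Plvap value of all 65 libraries, and the other libraries with few hypothalamic markers are not set out here. With meningeal markers r was 0.68 for Pecam1, 0.62 for Esam, 0.57 for Slco1a4, 0.46 for Cldn5, 0.43 for Abcb1a, 0.34 for Slc2a1, 0.17 for Plvap, 0.03 for Flt1, −0.21 for Slc7a5 and −0.28 for Mfsd2a. With microglial markers r was 0.62 for Cldn5, 0.59 for Esam, 0.54 for Pecam1 and 0.50 for Slco1a4, and from −0.22 for Plvap to 0.42 for Abcb1a in the others. With oligodendrocyte markers Cldn5 and Slc2a1 had 0.53 and Esam 0.51. The part of these cell types in the values was not tested.

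A wider list of 113 vascular genes in 9 roles, of which 112 could be tested, gave context. In RYGB against Sham 15 were higher and 1 lower, which is 14.3% of the list beside 13% of all genes. The share higher was 13.4% beside 6.52%, and the share lower 0.893% beside 6.53%. The median log2 fold change of the list was 0.20.

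The transcription factors Epas1, the hypoxia-inducible factor HIF-2 alpha (log2 fold change 1.06, SE 0.18, adjusted p = 0.000654 in edgeR's test), and Ets1 (0.50, SE 0.15) rose in RYGB. Of the receptors and surface proteins, Flt4, the VEGF receptor 3 (0.79, SE 0.20), and Cd34 (0.99, SE 0.33) rose, as did Cdh5, the VE-cadherin of adherens junctions (0.94, SE 0.31), and Insr, the insulin receptor (0.97, SE 0.23). Angpt1, the ligand of Tek (1.06, SE 0.31), Cavin2 of the caveolae (0.72, SE 0.18) and Hif1a (0.33, SE 0.10) rose. The mural cell genes Notch3 (0.81, SE 0.24) and Rgs5 (0.73, SE 0.23) and the laminins Lama4 (0.55, SE 0.18) and Lamc1 (0.43, SE 0.14) rose too. In the Wnt set that maintains the barrier, the co-receptors Lrp6 (0.79, SE 0.17) and Lrp5 (0.56, SE 0.18) rose and Ndp, the ligand norrin, fell by 0.37 (SE 0.09). None of the 4 adhesion genes of leukocytes that could be tested passed.

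In BWM against Sham 7 of the 112 were higher and 0 lower, 6.25% beside 0.32% of all genes. They were Clec14a (1.18, SE 0.28), Kdr, the VEGF receptor 2 (0.90, SE 0.21), Flt4 (0.96, SE 0.24), Ets1 (0.77, SE 0.18), Epas1 (0.89, SE 0.22), Rgs5 (1.17, SE 0.27) and Vegfc, a ligand of Flt4 (1.26, SE 0.26, adjusted p = 0.0141 in edgeR's test). Of these, 4 also passed in RYGB against Sham, a comparison with the same Sham animals: 4 of 7 and 4 of 16. In RYGB against BWM the wider list had 2 genes lower, Egfl7 (−0.63, SE 0.14) and Vegfc (−1.04, SE 0.23), and 0 higher. The share lower was 1.79% beside 0.334% of all genes, and the share higher 0% beside 0.00914%. In the other 5 comparisons 0 of the 112 passed in edgeR's test, and 0 in DESeq2. At an unadjusted p under 0.05 there were 19 in Lean (17% beside 12.2% of all genes), 3 in PYY3-36 (2.68% beside 7.54%), 0 in Liraglutide (0% beside 2.08%), 3 in the combination (2.68% beside 2.53%) and 18 in Sham against Saline (16.1% beside 12.9%).

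These counts moved with batch, control group and animals. Within batch A 30 of the 112 were higher in RYGB and 1 lower (27.7% beside 8.57% of all genes), and 38 higher and 1 lower in BWM (34.8% beside 5.31%). Lean within batch A had 0 past the test, beside 0.122% of all genes. Its count at an unadjusted p under 0.05 was 44 (39.3% beside 15.3% of all genes). RYGB had 52 (46.4% beside 25.4%) and BWM 61 (54.5% beside 19.6%) at that level in the same batch. Within batch B 3 were higher in RYGB, Epas1, Insr and Wnt7b, 2.68% beside 2.72% of all genes. With Saline in place of Sham 0 passed for RYGB and 0 for BWM, and Epas1 had a log2 fold change of 0.31 (SE 0.20) in RYGB. The smallest adjusted p of any gene against Saline was 0.0472 for RYGB and 0.00188 for BWM in edgeR's test. At an unadjusted p under 0.05 there were 4 of the 112 for RYGB against Saline (3.57% beside 2.08% of all genes). For BWM against Saline there were 25 (22.3% beside 6.47%). Leaving out 1 BWM rat took the BWM count from 7 to 0 (replicate 5), 1 (replicate 7), 3 (replicate 3) or 22 (replicate 1). Leaving out 1 Sham rat took it to 0 (2 or 3), 1 (4 or 5), 2 (7) or 3 (1 or 8). The RYGB count went from 16 to 10 when Sham replicate 4 was left out, and to 8 when Sham replicate 5 was. The share of all genes passing with these animals left out is not given, so these moves cannot be called particular to the list.

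Summed meningeal markers in batch A were 70.9 to 124 CPM in the 5 Sham rats, 116 to 3439 in RYGB (median 564) and 88.9 to 3214 in BWM (median 1217). Other groups of batch A also had high values. Lean had 99.8 to 1264 (median 754) and the combination 350 to 1944 (median 774). Saline of batch A had 97.7 to 778 (median 107). In batch B summed meningeal markers were 137 to 1139.9 in Sham (median 205), 194 to 206 in RYGB and 316 to 1102 in PYY3-36 (median 921). No meningeal marker is on the wider list or among the 10 members. The part of meningeal tissue in the wider list's counts was not tested.

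**Figure D5:**
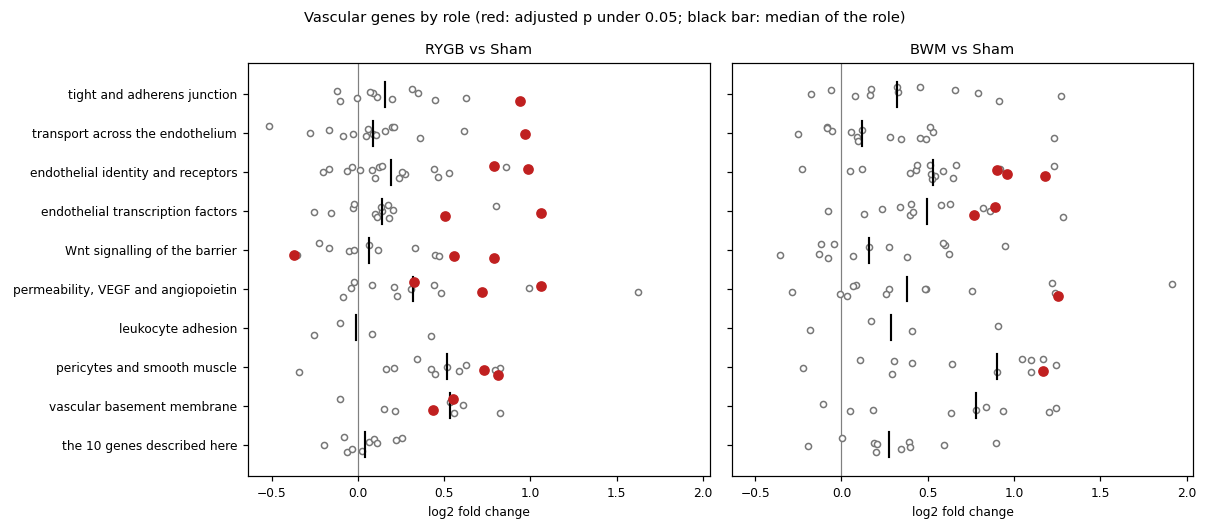
Log2 fold change (x axis) of each tested gene of the wider vascular list by role (y axis) and of the 10 genes in the bottom row, for RYGB against Sham and BWM against Sham; red points have an adjusted p under 0.05 and black bars mark the median of a role. Pericyte and basement membrane genes have the medians farthest to the right (0.52 and 0.54 in RYGB, 0.90 and 0.78 in BWM), and the 10 genes have medians of 0.05 and 0.28.

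Between batches 28 of the 112 were higher in batch B and 22 lower, 44.6% beside 40.7% of all genes. Of 9 basement membrane genes 5 were lower and 0 higher, with Col4a2 at −1.31 (SE 0.12) and Col4a1 at −0.89 (SE 0.12). Of 18 endothelial identity genes 6 were higher and 1 lower, with Emcn at 0.66 (SE 0.11) and Itm2a at 0.56 (SE 0.09). Pericyte genes included Notch3 at −0.78 (SE 0.18) and Higd1b at 0.56 (SE 0.14). The junction, transport and Wnt sets also held genes past the threshold in both directions. The share of all genes by direction is not given here, so these counts cannot be called particular to a role.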

How the data were processed

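RNA was poly-A selected from the hypothalamus of each rat. The deposited table holds estimated counts per RefSeq gene of Rnor_6.0: the authors trimmed reads with cutadapt (1.16 in the submitters' processing notes, with further versions in the methods), aligned them with STAR 2.7.2b and counted exons by strand with featureCounts 1.6.4, giving multi-mapping and overlapping reads as fractions. Counts were rounded to whole numbers. The 10 genes and all lists were chosen with earlier results of these data known. All 65 libraries were fitted in edgeR 4.0.16 (TMM, robust quasi-likelihood, group and batch as terms, filterByExpr with minimum count 10), with Benjamini-Hochberg adjustment over 21871 genes and a threshold of 0.05. A second fit with each group and batch as a cell gave within-batch values over 22207 genes. The step was tested on simulated data. DESeq2 1.42.0 was an alternative, and its size factors gave normalized counts. TPM used the exon length in the table. Correlations used log2(CPM + 1). All 10 genes are described in each comparison; of the wider list, up to 3 genes per role with an adjusted p under 0.05 and the smallest p are named, and the 3 genes with the highest r per member. Alternatives were another scaling, no filter, DESeq2, no batch term, fewer groups, a replicate block, Saline as the control and leaving out animals. Replicates are separate animals. R 4.3.3 and Python 3.11.15 were used.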

Additional observations from a re-analysis of the deposited data

Results flagged for a closer look

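Of 60 pairs of gene and group, 2 had an animal whose gap to the nearest other animal was beyond Dixon's 95% limit. Chance alone meets this rule in about 1 in 20 groups. It was applied to groups of 4 to 10 animals, with batches pooled. RYGB (n = 14) and Sham (n = 11) were therefore not screened. Flt1 in BWM replicate 7 had 3234 normalized counts, against 2022 in the next BWM rat. Plvap in BWM replicate 5 had 1509 normalized counts, against 555.2 in the next.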

How the results depend on the processing

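The number of the 10 genes past the threshold stayed at 0 under every alternative tried in RYGB against Sham, RYGB against BWM, the 3 hormone comparisons and Sham against Saline. In BWM against Sham it was 1, Abcb1a, without the batch term and in DESeq2, and 0 to 1 with single animals left out (1 without BWM replicate 1, 2 or 5 or Sham replicate 11). In Lean against Sham it was 1, again Abcb1a, without the batch term (log2 fold change 0.45, adjusted p = 0.0425 in edgeR's test). Between batches 5 genes passed, 4 to 5 with single animals left out and 0 with the replicate block; Cldn5 also fell short with DESeq2's scaling (adjusted p = 0.0530) and without the filter on low counts (0.0834), and without Saline replicate 1 or 2 or Sham replicate 1, 6 or 9. The replicate block shares information with batch, as said above. Replicate numbers do not pair animals. In the same batch, libraries of different groups with the same number had a median correlation of deviations of 0.00 over 87 pairs. It was −0.01 over 789 pairs with different numbers.

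For the wider list, 16 genes passed in RYGB against Sham. The count was 30 without the batch term, 9 with the replicate block, 31 within batch A, 3 within batch B, 0 with Saline as the control and 8 to 24 with single animals left out. In BWM against Sham 7 passed: 43 without the batch term, 0 with the replicate block, 20 with only both groups fitted, 39 within batch A, 0 with Saline as the control, 14 in DESeq2, 0 without BWM replicates 5 and 7, and 0 to 22 with single animals left out. In RYGB against BWM 2 passed: 1 without the batch term, 0 with the replicate block, 0 with only both groups fitted, 1 within batch A, 0 without BWM replicates 5 and 7, and 0 to 7 with single animals left out. The share of all genes that passed is given for the main fits and within batches only. Moves of the other counts cannot be called particular to the list. Abcb1a in BWM against Sham had an unadjusted p of 0.000206 in edgeR's test with all animals. Without BWM replicates 5 and 7 it was 0.000305, while the adjusted p went from 0.0543 to 0.696. Plvap turned without BWM replicates 5 and 7, to −0.21 in BWM against Sham and 0.17 in RYGB against BWM. In the 4 comparisons among RYGB, BWM, Lean and Sham, a member changed sign 65 times over 1140 values under alternatives, and apart from Plvap these were members with log2 fold changes of at most 0.14 in size. Leaving out both BWM replicates 5 and 7 was chosen after seeing the data, as were the alternatives for the batch comparison. The cause of these moves was not tested. With 4 to 14 animals a group, changes of members below the interval bounds given above could not be shown.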
